A study of Mus musculus with 3 samples.

Results

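DNA replication and S phase genes were followed in Hepa1c1c7 cells, a mouse hepatoma line, after transfection with a plasmid. The members were a written list of 36 genes, chosen by name from the machinery that licenses origins, unwinds and copies DNA and supplies nucleotides. The choice of genes used no measured value, though the list was drawn up with earlier results of these data known. The probe of each gene and the background condition were taken from the signals of these arrays. All 36 had a probe on the array, and 35 were well above background on all 3 arrays, out of 22911 named genes of which 12466 met that condition. Cells received an empty vector (pCMV6-Kan/Neo), or the same kind of plasmid with the open reading frame of Mst1r (a receptor tyrosine kinase) or of Slpi (a secreted protease inhibitor). Each group was 1 sample on 1 single-colour Agilent array labelled from 100 ng of total RNA. The groups shared the cell line, transfection, the amount of RNA, the slide and the scan. With 1 array a group no difference has a replicate check, and neither a test between groups nor a p-value is given.

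DNA replication starts from origins that are licensed in G1, when the origin recognition complex, Cdc6 and Cdt1 load the Mcm2-7 helicase onto DNA. At the start of S phase Cdc45 and the GINS complex switch the helicase on, and polymerases held by the Pcna clamp copy the strands, one of them in short Okazaki fragments that are trimmed and joined afterwards. Many of these genes are transcribed in waves by E2F factors once cyclin E and its kinase have relieved the block by the retinoblastoma proteins, and dividing hepatoma cells use them all. In RNA from a whole culture, fewer cells in S phase and less RNA per cell cannot be told apart.

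Sequence features that the list did not use were more frequent in the start regions of these genes than in those of all genes measured. RefSeq (GRCm38.p6) gave a window from 250 bases before to 50 bases after the start for 28 of the 36 genes. Entries were missing for Ccne2, Gins1, Gins2, Gins4, Mcm4, Pole, Prim2 and Rfc2. Windows were searched on both strands for the E2F forms TTTCCCGC, TTTCGCGC, TTTGCCGC and TTTGGCGC and for the NF-Y motif CCAAT. One stretch can hold several E2F forms that overlap, and no E2F form contains CCAAT. An E2F form lay in 12 of the 28 genes (42.9%), against 4.65% of the 9955 measured genes with a window and 2.26% of all 32851 windows. CCAAT lay in 17 of 28 (60.7%), against 43.0% of measured genes and 37.4% of all windows. Both were found in 8 of 28 genes (28.6%) and in 2.12% of measured genes. A match is a description of letters and not of a bound site.

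The 160 bases before the start are shown for 6 of these genes: Cdc6, Prim1 and Rrm1, which were among the lowest with the Mst1r vector, and Mcm5, Mcm6 and Orc1, whose windows hold both kinds of motif. The sequences run 5′ to 3′ on the strand of the gene, up to the base before the start, and capitals mark E2F forms and CCAAT on either strand.
Cdc6, chr11:98907991-98908150, plus strand: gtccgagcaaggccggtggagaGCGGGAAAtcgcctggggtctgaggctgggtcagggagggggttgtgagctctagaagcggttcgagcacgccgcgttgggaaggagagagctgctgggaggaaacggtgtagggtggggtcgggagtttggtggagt
Prim1, chr10:128015055-128015214, plus strand: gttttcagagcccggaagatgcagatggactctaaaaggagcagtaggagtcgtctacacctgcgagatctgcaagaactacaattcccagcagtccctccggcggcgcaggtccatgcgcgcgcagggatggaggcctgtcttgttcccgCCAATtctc
Rrm1, chr7:102441535-102441694, plus strand: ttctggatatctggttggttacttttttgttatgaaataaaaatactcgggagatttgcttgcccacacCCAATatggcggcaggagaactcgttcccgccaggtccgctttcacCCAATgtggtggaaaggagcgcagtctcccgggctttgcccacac
Mcm5, chr8:75109349-75109508, plus strand: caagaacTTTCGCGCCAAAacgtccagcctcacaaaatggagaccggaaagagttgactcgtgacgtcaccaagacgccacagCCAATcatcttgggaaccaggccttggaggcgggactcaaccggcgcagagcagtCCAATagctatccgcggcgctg
Mcm6, chr1:128359706-128359865, minus strand: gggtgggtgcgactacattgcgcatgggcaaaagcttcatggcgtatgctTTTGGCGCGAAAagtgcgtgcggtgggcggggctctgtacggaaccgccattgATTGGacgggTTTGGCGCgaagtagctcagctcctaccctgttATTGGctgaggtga
Orc1, chr4:108579294-108579453, plus strand: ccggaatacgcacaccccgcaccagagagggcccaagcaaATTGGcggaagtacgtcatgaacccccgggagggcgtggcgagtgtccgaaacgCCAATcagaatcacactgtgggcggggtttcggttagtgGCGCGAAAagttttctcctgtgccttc

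These sequences differ in what they hold. The Cdc6 stretch has a single E2F form, 138 bases before the start, and the Mcm6 stretch has 3, of which the first 2 overlap. The Prim1 and Rrm1 stretches have CCAAT and none of the E2F forms searched. Both hold TTCCCGC, which is the form TTTCCCGC without its first base, and such shorter matches were not searched. Genes without a searched form are therefore not known to lack E2F sites. The 12 genes with a searched E2F form had a median log2 difference of -0.09 between Mst1r and empty vector, and the 16 without one had -0.13. The error of this gap between medians was not estimated. Over all measured genes with an E2F form the median was -0.07, against -0.05 for all genes.

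The values below are the processed signal of the brightest probe of each gene, which is the background-corrected fluorescence of a spot on a linear scale, as deposited and not scaled between arrays. Differences are log2 differences after each array was divided by the 75th percentile of its own probes, which was 268 for the empty, 229 for the Mst1r and 254 for the Slpi vector. The Mst1r vector array was therefore dimmer for most probes, and the unscaled signals must be read with that in mind. The ± value is the spot SD, the SD of a difference that probes printed at least 10 times gave at that signal. It covers the spread between spots of 1 array and no spread between cultures. Signals of different genes come from different probes and are not comparable.

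The arrays were checked against their labels before the genes were compared. The probe for Mst1r lay at background level throughout and was not called well above it, with signals of 4.15, 4.08 and 3.70 on the empty, Mst1r and Slpi vector arrays. The Slpi probe read 6459, 3843 and 6680, a difference of 0.13 ± 0.13 on the array labelled Slpi vector, and a second, dimmer Slpi probe read 106, 91.7 and 85.8, a difference of -0.23 ± 0.24. The genes carried by the vectors were thus not higher on their own arrays by more than 2 spot SDs, and whether these probes lie inside the cloned reading frames was not tested. Group names below are therefore those of the labels. Of 12 hepatocyte lineage markers, 7 were well above background on all arrays, including Alb, Afp and Krt18, whereas Hnf4a and Apob were on none. Of markers of other cell types, 2 of 4 for blood cells, 2 of 3 for fibroblasts and 1 of 3 for endothelium were well above background on all arrays, and Ptprc, Adgre1, Cdh5 and Kdr on none. With the Mst1r vector, Alb and Apoe were higher by 0.57 ± 0.13 and 0.50 ± 0.16, Trf was lower at -0.21 ± 0.08, and the fibroblast markers Dcn and Col1a1 differed by -0.35 and 0.27. The part of these markers in the results was not tested.

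With the Mst1r vector the replication genes were slightly lower as a group. The scaled signal was below that of the empty vector for 32 of 35 genes, while 60.1% of all genes measured were below. The median log2 difference was -0.15, against a median of -0.05 over all 12466 genes. The middle 50% of the replication genes lay between -0.22 and -0.08, and that of all genes between -0.17 and 0.09. Of the 35, 4 fell by more than 2 spot SDs (Cdc6, Prim1, Pole and Rrm1), which at 11.4% was near the 8.73% of all genes, and 0 rose, against 6.55%. The share below 0 was thus above that of all genes, while the share past 2 spot SDs was close to it. None differed 2-fold, against 2.26% of all genes. Genes of similar brightness, 5446 with a mean signal between 856 and 14788, had a median of -0.06, and 65.8% of them were below 0. The SD among the 35 genes was 0.11, smaller than the median spot SD of 0.13, so the spot SD does not resolve the order of the genes within the group. Between log2 signals of 6 and 14 the spot SD rested on 9 to 29 pairs of probe and array per signal range, so it is itself uncertain.

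With the Slpi vector no such displacement was seen. Of 35 genes 16 were below 0, against 48.1% of all genes, and the median of 0.01 was that of all genes. None was lower by more than 2 spot SDs, against 1.71% of all genes, and none was higher, against 2.12%. None differed 2-fold, against 0.906%. These 2 comparisons share the empty vector array. The direction of the Slpi median turned with the scaling, being 0.17 with median scaling and -0.23 with spike-in scaling, while its distance from the median of all genes stayed between -0.01 and 0.00.

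**Figure D1:**
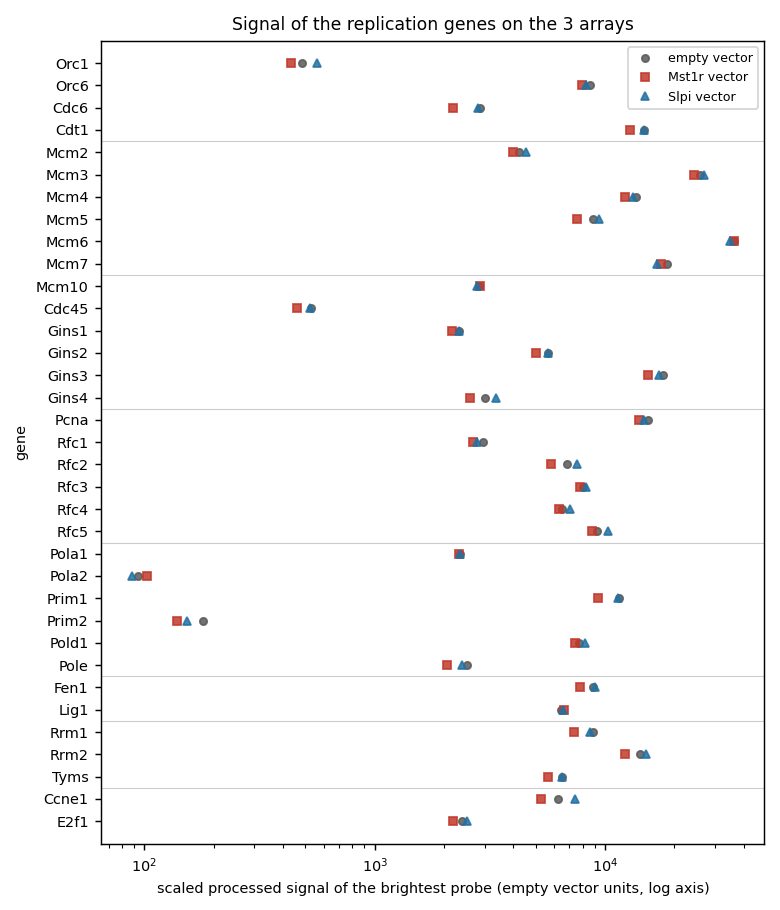
Scaled processed signal of the brightest probe (log axis, brought to the 75th percentile of the empty vector array) for each of the 35 genes, with a circle for the empty, a square for the Mst1r and a triangle for the Slpi vector array, and grey lines between roles. The square is the leftmost mark for 30 of 35 genes, and positions are to be compared along a gene's own line.

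The origin licensing genes were lower with the Mst1r vector in 4 of 4 cases, against 60.1% of all genes, with a median of -0.17. Orc1, the largest subunit of the origin recognition complex, read 482 with the empty, 370 with the Mst1r and 531 with the Slpi vector, differences from the empty vector of -0.15 ± 0.16 and 0.22 ± 0.16. Orc6, its smallest subunit, read 8594, 6779 and 7795, differences of -0.11 ± 0.13 and -0.06 ± 0.13. Both stayed within 2 spot SDs, and Orc1 was highest with the Slpi vector with this probe. A further, dimmer Orc1 probe read 191, 142 and 175, differences of -0.20 ± 0.24 and -0.05 ± 0.24. Cdc6, the ATPase that loads the helicase with the origin complex, read 2850, 1860 and 2664. It fell by 0.39 on the log2 scale with the Mst1r vector (spot SD 0.12), the lowest value among the 35 genes and lower than in all but 6.51% of genes measured. With the Slpi vector Cdc6 differed by -0.02 ± 0.12. Cdt1, its loading partner that is destroyed once S phase begins, read 14724, 10986 and 13948, differences of -0.19 ± 0.13 and 0.00 ± 0.13. The Mst1r vector array was thus lowest for each of these genes and by the most for Cdc6.

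The 6 subunits of the Mcm2-7 helicase, which forms a ring around DNA, had a median of -0.09 with the Mst1r vector, and none passed 2 spot SDs. Mcm2 read 4222, 3381 and 4296, differences of -0.09 ± 0.13 and 0.10 ± 0.13. Mcm3 read 25795, 20697 and 25423, differences of -0.09 ± 0.08 and 0.06 ± 0.08. Mcm4 read 13667, 10407 and 12471, differences of -0.16 ± 0.13 and -0.05 ± 0.13. These 3 subunits were lowest with the Mst1r vector, each within 2 spot SDs. Mcm5, whose start region is shown above, read 8896, 6450 and 8884, differences of -0.23 ± 0.13 and 0.08 ± 0.13. Mcm6 read 36361, 30978 and 32898, and after scaling the Mst1r and empty vector arrays were level, with differences of -0.00 ± 0.08 and -0.07 ± 0.08. Mcm7 read 18573, 14945 and 15948, differences of -0.08 ± 0.11 and -0.14 ± 0.11. For Mcm6 and Mcm7 the Slpi vector array was the lowest with these probes, but not with their further probes, which are described below.

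Genes that switch the helicase on were below 0 with the Mst1r vector in 5 of 6 cases, against 60.1% of all genes. Mcm10, which acts as the fork is set in motion, was the exception and read 2845, 2452 and 2629, differences of 0.02 ± 0.12 and -0.04 ± 0.12. Cdc45, which travels with the active helicase, read 529, 393 and 494, differences of -0.20 ± 0.16 and -0.02 ± 0.16. The GINS complex, the other part of the active helicase, has 4 subunits, and each was lower with the Mst1r vector. Gins1 read 2315, 1847 and 2206, differences of -0.10 ± 0.12 and 0.01 ± 0.12. Gins2 read 5676, 4278 and 5365, differences of -0.18 ± 0.13 and -0.00 ± 0.13. Gins3 read 17774, 13034 and 16298, differences of -0.22 ± 0.11 and -0.05 ± 0.11. With these probes the 3 lay within 2 spot SDs in both comparisons, but a further Gins2 probe was past them with the Mst1r vector, at -0.38 ± 0.12. Gins4 read 3011, 2207 and 3168, differences of -0.22 ± 0.12 and 0.15 ± 0.12, the first within 2 spot SDs like the second. A further Gins4 probe differed by -0.26 ± 0.12, past 2 spot SDs, with the Mst1r vector and by -0.11 ± 0.12 with the Slpi vector.

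The sliding clamp and its loader were all below 0 with the Mst1r vector, against 60.1% of all genes. Their median was -0.10, and none passed 2 spot SDs. Pcna, the ring that holds polymerases on DNA, read 15279, 12010 and 13971, differences of -0.12 ± 0.13 and -0.05 ± 0.13. Rfc1, the large subunit of the loader that opens the ring, read 2957, 2287 and 2637, differences of -0.14 ± 0.12 and -0.09 ± 0.12. The small loader subunits were above 0 with the Slpi vector, within 2 spot SDs, though further probes of Rfc3 and Rfc4 were at -0.05 and -0.11. Rfc2 read 6809, 4973 and 7182, differences of -0.22 ± 0.13 and 0.16 ± 0.13. Rfc3 read 8013, 6643 and 7786, differences of -0.04 ± 0.13 and 0.04 ± 0.13. Rfc4 read 6510, 5387 and 6686, differences of -0.04 ± 0.13 and 0.12 ± 0.13. The last 2 were level with the median of all genes with the Mst1r vector. Rfc5 read 9215, 7468 and 9756, differences of -0.07 ± 0.13 and 0.16 ± 0.13, the second within 2 spot SDs like that of Rfc2.

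Among the polymerases and primase, 2 of 6 genes fell past 2 spot SDs with the Mst1r vector, against 8.73% of all genes. Prim1, the catalytic subunit of the primase that makes the RNA primers, read 11471, 7927 and 10728. It fell by 0.30 with the Mst1r vector (spot SD 0.13) and differed by -0.02 ± 0.13 with the Slpi vector. Pole, the catalytic subunit of the leading strand polymerase epsilon, read 2512, 1758 and 2257. It fell by 0.28 with the Mst1r vector (spot SD 0.12) and differed by -0.08 ± 0.12 with the Slpi vector. Both were thus lowest with the Mst1r vector, with the other 2 arrays close together. Pola1, the catalytic subunit of polymerase alpha, read 2337, 1985 and 2225, differences of -0.01 ± 0.12 and 0.01 ± 0.12. Pold1, the catalytic subunit of the lagging strand polymerase delta, read 7696, 6297 and 7737, differences of -0.06 ± 0.13 and 0.09 ± 0.13. Neither differed beyond its spot SD. The probes of the other polymerase and primase genes were dim and stood at the edge of what these arrays resolve.

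Pola2, the accessory subunit of polymerase alpha, was the dimmest gene that met the background condition, and read 94.1, 87.1 and 83.3, differences of 0.12 ± 0.24 and -0.10 ± 0.24. Prim2, the large primase subunit, read 180, 119 and 144, differences of -0.37 ± 0.24 and -0.24 ± 0.24. Control spots taken as dark reached 207, 289 and 481 over all rows of the empty, Mst1r and Slpi vector arrays, and both genes lay below these maxima. Prim2 lay in the upper rows, which held nearly all dark control spots brighter than 50, as described below. Pola2 lay in the lower rows, where 0, 2 and 1 of them were brighter than 50. On the empty vector array Pola2 was thus above every dark control spot of the lower rows. Without these 2 genes, an alternative chosen after seeing the data, the median stayed at -0.15 and 31 genes were below 0. The gene just outside the condition was Ccne2, the second cyclin E, which read 25.0, 14.1 and 19.1 and was not well above background with the Mst1r vector. Its scaled signal with the empty vector was 1.13-fold the lowest signal called well above background with the Mst1r vector, a value that leaves out the spot error. The difference itself was -0.60 ± 0.89, within its spot SD.

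The genes for joining Okazaki fragments lay within 2 spot SDs in both comparisons. Fen1, the nuclease that cuts off the flap left by each primer, read 8871, 6659 and 8565, differences of -0.18 ± 0.13 and 0.03 ± 0.13. Lig1, the ligase that seals the remaining nick, read 6449, 5636 and 6187, differences of 0.04 ± 0.13 and 0.02 ± 0.13. By its brightest probe Lig1 was 1 of 3 genes above 0 with the Mst1r vector, beside Mcm10 and Pola2. Each of the 3 lay within its spot SD of 0. A further, dimmer Lig1 probe was below 0 with the Mst1r and Slpi vectors, at -0.06 ± 0.16 and -0.24 ± 0.16. With spike-in scaling Lig1 and Mcm10 were below 0.

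All 3 genes of nucleotide supply were lower with the Mst1r vector, against 60.1% of all genes, with a median of -0.22. Rrm1, the large subunit of ribonucleotide reductase, read 8845, 6250 and 8164. It fell by 0.27 with the Mst1r vector (spot SD 0.13) and differed by -0.04 ± 0.13 with the Slpi vector, but its difference was -0.24 with the percentile taken over detected probes and with median scaling, and -0.23 with quantile normalization, no longer past 2 spot SDs. Rrm2, the small subunit that is made in S phase, read 14228, 10413 and 14192, differences of -0.22 ± 0.13 and 0.07 ± 0.13. Tyms, thymidylate synthase, read 6470, 4834 and 6157, differences of -0.19 ± 0.13 and 0.01 ± 0.13. For the whole trio the empty and Slpi vector arrays were close and the Mst1r vector array stood below them.

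The switch from G1 to S was represented by cyclin E1 and E2f1. Ccne1, which with Cdk2 drives cells into S phase, read 6249, 4512 and 7015, differences of -0.24 ± 0.13 and 0.25 ± 0.13. It had the highest difference of the 35 genes with the Slpi vector, within 2 spot SDs. E2f1, an activating E2F factor, read 2386, 1860 and 2391, differences of -0.13 ± 0.12 and 0.08 ± 0.12. Both genes were lowest with the Mst1r vector.

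**Figure D2:**
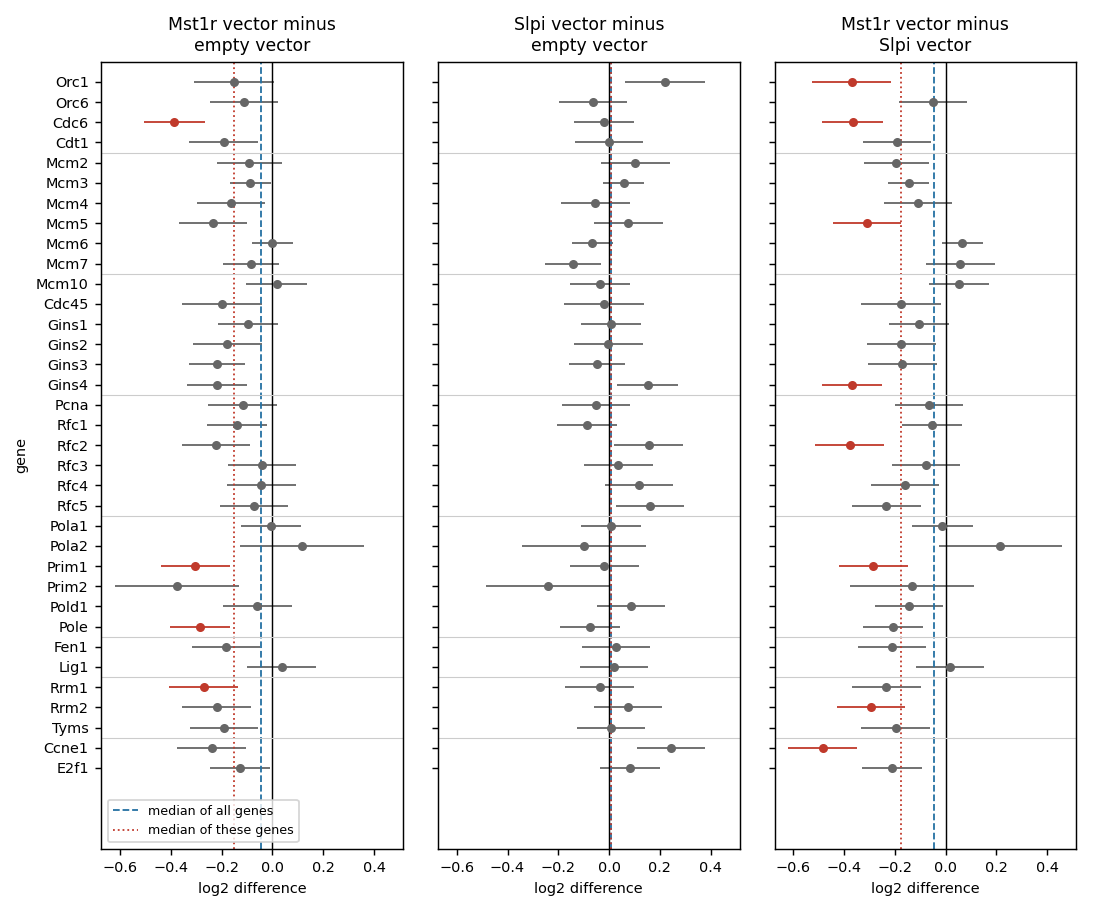
Log2 difference of scaled signal for the 35 genes, from left to right for Mst1r minus empty, Slpi minus empty and Mst1r minus Slpi vector, with bars of 1 spot SD on either side and red for genes past 2 spot SDs. The dotted line is the median of the 35 genes (-0.15, 0.01 and -0.17) and the dashed line that of all genes measured (-0.05, 0.01 and -0.05).

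The arrays of both expression vectors were also compared directly. With the Mst1r vector 30 of 35 genes were below the Slpi vector, against 58.5% of all genes, with a median of -0.17 against -0.05. Of the 35, 8 were lower by more than 2 spot SDs (22.9%), against 10.8% of all genes, 0 were higher, against 6.68%, and none differed 2-fold, against 2.24%. The 8 were Ccne1 (-0.48 ± 0.13), Rfc2 (-0.38 ± 0.13), Orc1 (-0.37 ± 0.16), Gins4 (-0.37 ± 0.12), Cdc6 (-0.37 ± 0.12), Mcm5 (-0.31 ± 0.13), Rrm2 (-0.29 ± 0.13) and Prim1 (-0.28 ± 0.13). Of these, Cdc6 and Prim1 were also past 2 spot SDs against the empty vector. Further probes of Orc1 and Gins4 differed by -0.16 ± 0.24 and -0.16 ± 0.12 between these vectors, within 2 spot SDs. That of Cdc6 was past them, at -0.44 ± 0.14. With spike-in scaling 1 gene, Ccne1, remained past 2 spot SDs in this comparison. Across the 3 arrays, the Mst1r vector array was the lowest for 30 of 35 genes, and for 49.4% of all genes.

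**Figure D3:**
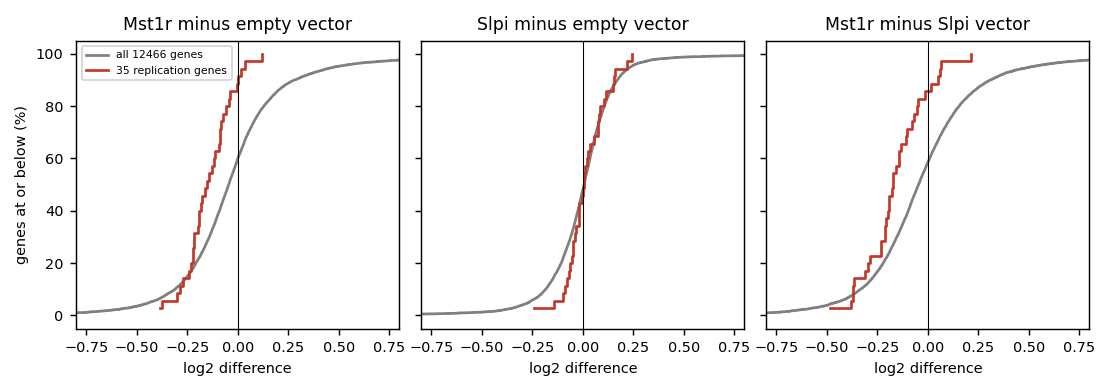
Cumulative share of genes (%) at or below each log2 difference of scaled signal, for the 35 replication genes (red) and all 12466 genes measured (grey), in the 3 comparisons. Except at its low end, the red curve lies to the left of the grey one for Mst1r minus empty and Mst1r minus Slpi vector, with medians of -0.15 and -0.17, and on it for Slpi minus empty vector, with a median of 0.01.

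Second probes gave a separate reading on the same arrays, though of the same RNA. For 14 genes, 15 further probes were well above background on all arrays. With the Mst1r vector 14 of the 15 were below 0, against 60.1% of all genes by their brightest probe, with a median of -0.20. All 15 lay within 2 spot SDs of the brightest probe of their gene. The further Cdc6 probe differed by -0.42 ± 0.14, beside -0.39 ± 0.12 for the brightest one. Further probes of Gins2 and Gins4 were past 2 spot SDs as well, where the brightest ones were not. Of all genes, 8.73% were lower past 2 spot SDs by their brightest probe. The further Mcm6 probe was at -0.22 ± 0.16, beside -0.00 ± 0.08, and the Mcm7 probe was the one above 0, at 0.03 ± 0.21. With the Slpi vector 9 of 15 were below 0, against 48.1% of all genes by their brightest probe, with a median of -0.05. The further Mcm6 probe was at -0.05 ± 0.16, and the Mcm7 probes lay on opposite sides of 0, at -0.14 ± 0.11 and 0.20 ± 0.16.

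**Figure D4:**
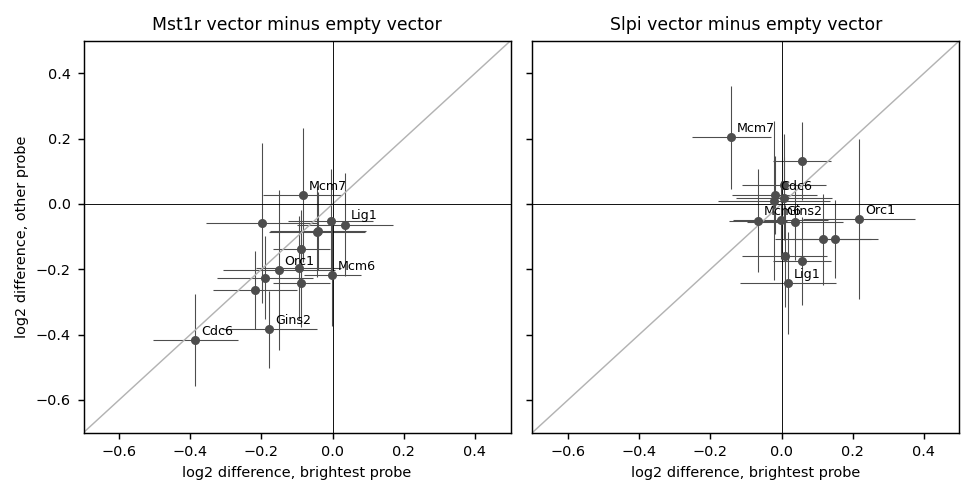
Log2 difference of scaled signal of a further probe of a gene (vertical axis) against that of its brightest probe (horizontal axis), for 15 probe pairs of 14 genes, with bars of 1 spot SD and a grey line of equality. For Mst1r minus empty vector 13 of the 15 points lie below 0 on both axes, and for Slpi minus empty vector the points lie around 0.

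The place of the spots on the array was examined because dark control spots brighter than 50 were nearly all in the upper rows, the first of 3 equal blocks of rows, where 25, 37 and 26 of them lay on the empty, Mst1r and Slpi vector arrays, against 0, 2 and 1 in the lower rows. In the lower rows, 19 of 22 replication genes were below 0 with the Mst1r vector, against 59.4% of all genes there, with a median of -0.12 against -0.04. In the upper rows, 13 of 13 were below 0, against 61.3% of all genes there, with a median of -0.19 against -0.05. Pole and Rrm1 lay in the upper rows, and Cdc6 and Prim1 in the lower rows. The part of the row in the size of the difference was not tested.

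The 7 spike-in control probes, which read RNA added from outside the cells, gave a different zero. Unscaled, they differed by -0.13 ± 0.03 (SD over 7 probes) between Mst1r and empty vector and by 0.16 ± 0.04 between Slpi and empty vector, and after percentile scaling they stood at 0.10 and 0.24. With spike-in scaling all genes had medians of -0.15 and -0.23 in these comparisons, and 16 and 12 of the 35 replication genes were lower by more than 2 spot SDs, against 20.1% and 29.0% of all genes. Measured from the median of all genes, the replication genes lay -0.11 lower with the Mst1r vector in the percentile scaling, and between -0.12 and -0.08 over all 13 settings.

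Other genes of the pathway, from a list of 76 written by role, gave 71 well above background on all arrays. With the Mst1r vector 56 of the 71 were below 0 (60.1% of all genes were), with a median of -0.16 against -0.05, and 10 fell past 2 spot SDs, against 8.73% of all genes, while 0 rose, against 6.55%. Of 19 polymerase and fork genes 18 were below 0, with a median of -0.18. Pole2, the second subunit of polymerase epsilon, read 633, 411 and 514 and fell by 0.39 (spot SD 0.16). Top2a, the topoisomerase that untangles copied DNA, read 9828, 6650 and 8501 and fell by 0.33 (spot SD 0.13). Chtf18, part of an alternative clamp loader, read 1769, 1259 and 1739 and fell by 0.26 (spot SD 0.12). Like Pole, these 3 were lowest with the Mst1r vector.

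All 6 genes for chromatin behind the fork were below 0 with the Mst1r vector, against 60.1% of all genes, with a median of -0.24. Chaf1a, which places histones on new DNA, read 2939, 2055 and 3295 and fell by 0.29 (spot SD 0.12), and it rose by 0.24 ± 0.12 with the Slpi vector. Asf1b, a histone chaperone, read 4958, 3483 and 4662 and fell by 0.28 (spot SD 0.13). All 7 nucleotide genes measured were also below 0, with a median of -0.14.

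Licensing and firing genes were split, with 8 of 14 below 0, near the 60.1% of all genes, and a median of -0.08. Topbp1, which helps to fire origins, read 2135, 1469 and 1943 and fell by 0.31 (spot SD 0.12) with the Mst1r vector. Orc3, an origin complex subunit, read 841, 818 and 999 and rose by 0.33 ± 0.16 with the Slpi vector. Orc3 and Chaf1a were the 2 of 71 genes that rose with the Slpi vector, near the 2.12% of all genes, and 0 fell, against 1.71%.

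Of 25 regulators of the G1 to S switch, 17 were below 0 with the Mst1r vector, against 60.1% of all genes, with a median of -0.12. Among genes of similar brightness to the replication genes 65.8% were below 0, though several regulators were dimmer or brighter than that range. Rbl1, the retinoblastoma relative p107, read 1259, 831 and 1023 and fell by 0.37 (spot SD 0.14). E2f7, a repressing E2F factor, read 911, 612 and 807 and fell by 0.34 (spot SD 0.16). Ccnd3, a D cyclin of G1, fell by 0.29 (spot SD 0.13). None of the 25 rose past 2 spot SDs, against 6.55% of all genes. Of the listed inhibitors measured, Cdkn1a (p21) differed by 0.23 ± 0.12 and Cdkn2d by 0.09 ± 0.12. Cdkn1b differed by -0.11 ± 0.12 and Cdkn2c by -0.18 ± 0.12, so the inhibitors lay on both sides of 0, each within 2 spot SDs.

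**Figure D5:**
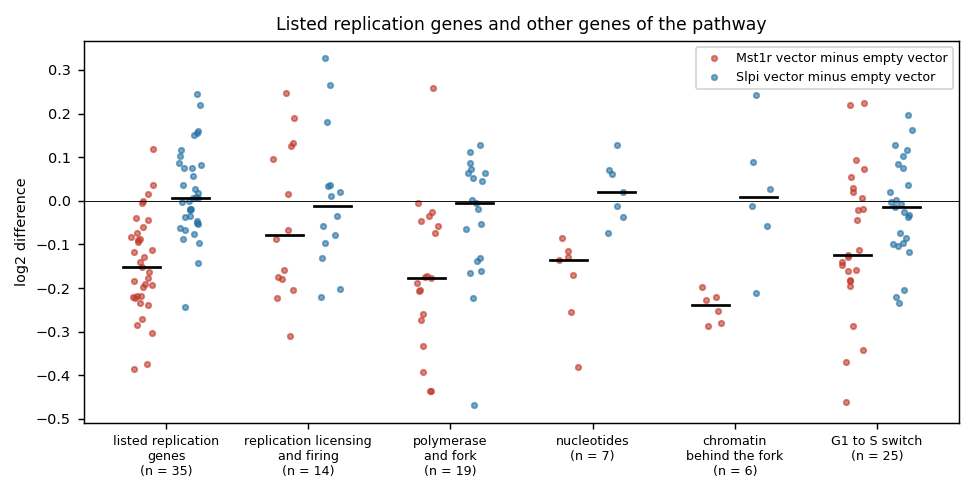
Log2 difference of scaled signal for the 35 listed replication genes and for 71 other genes of the pathway by role, with red points for Mst1r minus empty and blue points for Slpi minus empty vector, a point per gene and black bars for medians. The medians of the Mst1r vector lie between -0.24 and -0.08, and those of the Slpi vector between -0.01 and 0.02.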

How the data were processed

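The deposited scanner files hold spot intensity values that the authors took from 1-colour Agilent images with Feature Extraction 12.0.3.1, the version in the submitters' processing notes. The processed signal is background-corrected and not scaled between arrays. No array had a saturated spot. All 3 arrays lay on 1 slide and came from 1 scan.

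Spots of 1 probe were averaged as log2 processed signal, without outlier spots and control spots, and the 75th percentile of all non-control probes of the array was subtracted, the scaling named in the study's methods. Probes were named by RefSeq accession (GRCm38.p6), which matched 32994 of 56605 probes, and the probe with the highest mean log2 signal stood for a gene. Genes well above background on all 3 arrays were compared. The spot SD was taken from gene and control probes printed at least 10 times, outlier spots included. With 1 array a group no test was made, and the number of arrays limits the precision. The deposited value table held intensities within 0.01 (log2) of these for 99.988% of probes of the Mst1r vector array and for a larger share on the others. Named were all 36 members, at most 10 genes per comparison of the pathway list past 2 spot SDs, and the vector genes, except 1 gene of the pathway list that is not reported here. Cdkn1a was named after its value was seen, and Cdkn1b, Cdkn2c and Cdkn2d were named beside it. The members and lists were chosen with earlier results of these data known. Alternatives were other scalings, normexp with offset 50 on the median spot and background signals, other probe choices and filters, the lower rows of the array alone, and the value table. Python 3.11.15, pandas 2.3.3, R 4.3.3 and limma 3.58.1 were used, and the calculations were tested on simulated data.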

Additional observations from a re-analysis of the deposited data

How the results depend on the processing

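The median of the replication genes for Mst1r minus empty vector stayed below 0 in all 13 settings, from -0.38 to -0.12, and no difference of a single gene that was past 2 spot SDs changed sign. Where scaling moved all genes, the values moved with them. Without scaling, the medians were -0.38 for Mst1r minus empty and -0.33 for Mst1r minus Slpi vector, 31 and 23 genes were lower past 2 spot SDs (43.1% and 30.3% of all genes), and 26 genes were below 0 for Slpi minus empty vector (73.3% of all genes). With spike-in scaling, 16 genes were lower past 2 spot SDs for Mst1r minus empty vector (20.1% of all genes), the Slpi minus empty median was -0.23 with 34 genes below 0 (95.0% of all genes) and 12 lower past 2 spot SDs (29.0%), and the Mst1r minus Slpi median was -0.040 with 1 gene lower past 2 spot SDs (4.01%). With median scaling, the Slpi minus empty median was 0.17 with 1 gene below 0 (12.1% of all genes), and 21 genes were lower past 2 spot SDs for Mst1r minus Slpi vector (27.2%). Normexp gave 7 and 14 such genes for Mst1r minus empty and Mst1r minus Slpi vector (9.19% and 11.6%), and quantile normalization gave 5 for the latter (8.21%). For Mst1r minus empty vector the mean of all probes gave 7 (11.0%), and the lower rows alone, with 26 of the genes measured, gave 2 (7.29%). Relative to all genes, the median lay between -0.12 and -0.08 for Mst1r minus empty, -0.01 and 0.00 for Slpi minus empty and -0.14 and -0.10 for Mst1r minus Slpi vector. This distance cannot change when an array is scaled by a single factor, so only the other settings could move it. The cause of the moves between settings was not tested beyond the scaling itself. No paired analysis was possible because each group had 1 array.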
